A study of Mus musculus with 12 samples.

Results

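The small leucine-rich proteoglycans described here are 9 genes: Dcn (decorin), Bgn (biglycan), Aspn (asporin), Lum (lumican), Fmod (fibromodulin), Prelp, Omd (osteomodulin), Ogn (osteoglycin) and Podn (podocan). They were found by gene symbol among the 20620 genes of the deposited count table, and all 9 were among the 19346 genes that passed the filter on low counts. Messenger RNA was sequenced from mouse aortic valves at postnatal day 10, in 12 libraries that each pool 3 valves. The groups of 4 pools each were labelled Notch1+/-;Gata5-/- (called Gata5-null-labelled below), Notch1+/-;Gata5+/- (double-heterozygous-labelled) and wildtype. Both mutant groups thus carry the Notch1+/- label, so no group isolates the loss of Gata5 or of Notch1 against wildtype. The labels do not say how either allele was made, give no strain or sex, and describe whole valve tissue, so that a count sums over all cell types of a pool. Gata5, which encodes a heart transcription factor, had 0 counts in all 4 Gata5-null-labelled pools, 0.728 to 5.66 CPM (a count divided by the library's scaled total) in the double-heterozygous-labelled pools and 0.845 to 2.91 CPM in wildtype. Notch1, a receptor of cell-to-cell signalling, had 152 to 213 CPM in the Gata5-null-labelled pools, 148 to 194 CPM in the double-heterozygous-labelled pools and 98.6 to 159 CPM in wildtype, so neither heterozygous label was matched by a lower RNA level of its gene.

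These genes encode secreted matrix proteins built around a short row of leucine-rich repeats, which bind collagen fibrils and set their width and spacing. Several carry chondroitin, dermatan or keratan sulfate chains, and several also bind growth factors, such as those of the TGF-beta family, or act as ligands of innate immune receptors when released. A semilunar valve leaflet is stacked from a collagen-rich, a proteoglycan-rich and an elastin-rich layer, and its interstitial cells make most of this matrix.

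The totals ran between 13866604 and 25059653 counts per library. A count of 0 still allows up to 3 counts, which is 0.120 to 0.216 CPM, and this floor covers counting error only. The pools with most genes at 0 were Gata5-null-labelled replicate 3 (6000 genes) and wildtype replicate 2 (3208 genes), while the remaining 10 had 1017 to 2908. Across genes these pools also correlated least with the rest, with a mean Spearman rho of 0.891 and 0.923, against 0.930 to 0.947. The 10 markers of valve interstitial cells and fibroblasts, such as Col1a1, Postn and Vim, were all in the table. Their summed level was 28915 to 33105 CPM in Gata5-null-labelled, 29255 to 35350 CPM in double-heterozygous-labelled and 26316 to 34368 CPM in wildtype pools. A single marker of the 10 was at 0, in Gata5-null-labelled replicate 3. The 12 markers of heart muscle summed to between 23771 and 55292 CPM over the 12 pools, so heart muscle RNA was present in every pool. Besides smooth muscle, described with Podn below, no gene of 11 cell type marker lists was called by edgeR at an adjusted p under 0.05. Only 5 of 19346 genes were called for Gata5-null-labelled against wildtype and 0 in the other comparisons, so this says little about cell content. At an unadjusted p under 0.05, 4 of 8 cartilage, 2 of 6 melanocyte and 2 of 10 endothelial markers were higher in Gata5-null-labelled than wildtype pools. In the same comparison 1 of 12 heart muscle markers was lower, beside 394 higher and 650 lower of all genes.

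Together the 9 genes took 0.230% ± 0.0234 of all counts in the Gata5-null-labelled pools, 0.239% ± 0.0323 in the double-heterozygous-labelled pools and 0.225% ± 0.00975 in wildtype (SD, n = 4 each). Dcn, Bgn and Lum accounted for 73.1% to 81.3% of these counts in each library. Divided by the length of the principal transcript, Dcn and Bgn stood highest, at 335 ± 31.8 and 315 ± 30.9 CPM per kb in Gata5-null-labelled pools, 360 ± 48.3 and 335 ± 44.2 CPM per kb in double-heterozygous-labelled pools, and 321 ± 45.5 and 360 ± 74.5 CPM per kb in wildtype. Their ranges overlapped in every group. Lum followed at 157, 170 and 154 CPM per kb and Fmod at 66.6, 62.9 and 49.3 CPM per kb, in the same order of groups. Aspn (44.7, 45.3 and 41.7 CPM per kb) and Ogn (38.4, 44.1 and 46.1 CPM per kb) could not be ordered, since their ranges overlapped in each group, and the range of Fmod overlapped that of Ogn in each group too. Prelp had 25.6, 28.0 and 24.8 CPM per kb and overlapped Aspn in each group, then came Podn at 2.82, 4.43 and 4.06 CPM per kb, and Omd was lowest at 1.60, 1.68 and 1.87 CPM per kb. The order at the top depends on the length used: per kb of all annotated exons merged, which is 5.838 kb for Dcn and 6.099 kb for Bgn in place of 1.758 and 2.419 kb, Lum ranked first in every group.

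**Figure D1:**
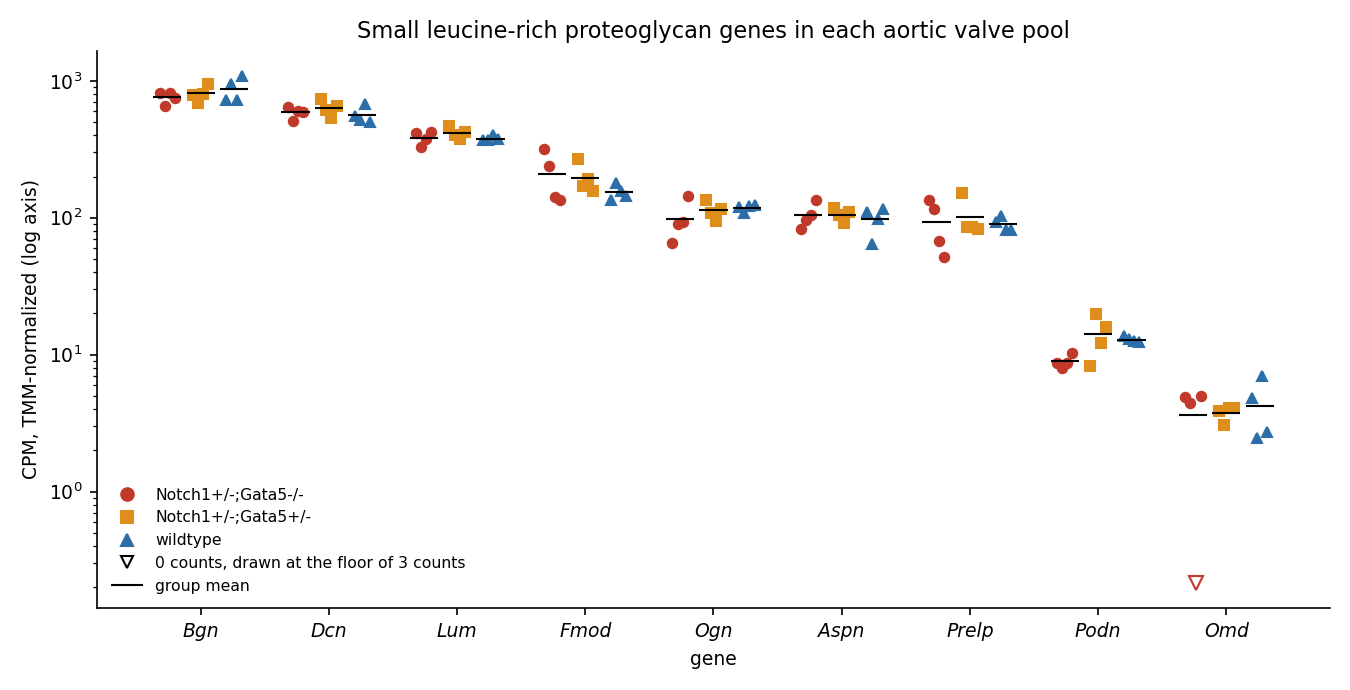
TMM-normalized CPM (log axis) of each of the 9 genes in each of the 12 pools, with Gata5-null-labelled pools at the left, double-heterozygous-labelled pools in the middle and wildtype at the right of each gene; short lines are group means and the open triangle is a library with 0 counts, drawn at its floor of 0.216 CPM. The 3 groups overlap for every gene except Podn, whose Gata5-null-labelled pools (8.03 to 10.3 CPM) all lie below wildtype (12.3 to 13.6 CPM); CPM is not per length, so heights compare groups and not genes.

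None of the 9 genes differed between groups at an adjusted p under 0.05. In edgeR's quasi-likelihood test, adjusted by Benjamini-Hochberg over all genes, 0 of 9 were called for Gata5-null-labelled against wildtype, where 0.0258% of all genes were called (5 of 19346). Likewise 0 of 9 were called for double-heterozygous-labelled against wildtype and for Gata5-null-labelled against double-heterozygous-labelled, where 0% of all genes were called. At an unadjusted p under 0.05 edgeR again found 0 of 9 in each comparison, against 5.40%, 1.25% and 3.18% of all genes. DESeq2 called 0 of 9 in each comparison at an adjusted p under 0.05, beside 47, 6 and 7 genes in all, and Fmod alone had an unadjusted p under 0.05 in it, for Gata5-null-labelled against wildtype. The count of 5 genes depends on single libraries: it was 2 without wildtype replicate 2, 3 without Gata5-null-labelled replicate 1 and 21 without Gata5-null-labelled replicate 4, with 0 of 9 members called each time.

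Against wildtype, the fold change of the Gata5-null-labelled pools was positive for 5 members and negative for 4, beside 8911 and 10435 of 19346 genes tested. The median log2 fold change was 0.03, beside -0.03 over all genes tested. For double-heterozygous-labelled pools against wildtype, 6 were positive and 3 negative, beside 9730 and 9616 of all genes. Their median was 0.13, beside 0.00 over all genes. Between the mutant groups, 8 of 9 members were lower and 1 was higher in the Gata5-null-labelled pools, beside 10726 lower and 8618 higher of all genes. The median was -0.10, beside -0.04 over all genes. Aspn, among the 8 lower, turned just positive with another library scaling (RLE, 0.010) and with DESeq2 (0.011). These comparisons share groups, so the counts are not independent of each other. As the tissue is a mixture, fewer cells of a type and less RNA per cell cannot be told apart in any of these values.

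**Figure D2:**
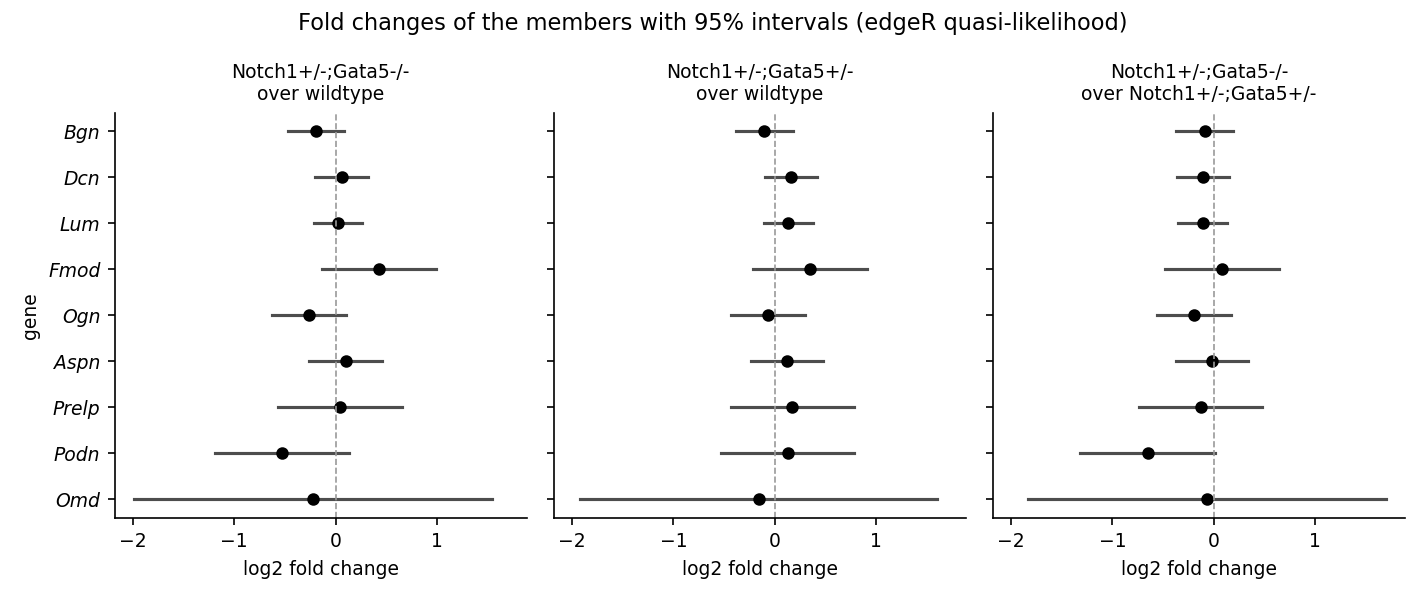
Log2 fold changes (points) with 95% intervals (lines) of the 9 genes in the 3 comparisons, from edgeR's quasi-likelihood fit of all 12 libraries. Every interval spans 0; those of Dcn, Bgn and Lum are narrow, and that of Omd runs between -1.99 and 1.54 for Gata5-null-labelled against wildtype.

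Decorin and biglycan are close relatives that carry chondroitin or dermatan sulfate chains, and asporin is their relative with a run of aspartates in place of such a chain. Dcn had 644, 512, 607 and 592 CPM in Gata5-null-labelled replicates 1 to 4, 738, 608, 534 and 650.4 CPM in the double-heterozygous-labelled replicates, and 555.5, 521, 679.9 and 502 CPM in wildtype. The 3 groups overlapped widely. Its fold for Gata5-null-labelled over wildtype was 1.04, with a 95% interval of 0.871 to 1.25, and the log2 fold change for double-heterozygous-labelled over wildtype was 0.16 (95% interval -0.095 to 0.42).

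Bgn, a gene of the X chromosome, had 813, 658, 819 and 754 CPM in the Gata5-null-labelled pools, 794, 689, 807 and 949 CPM in the double-heterozygous-labelled pools, and 723, 956, 719 and 1083 CPM in wildtype. Wildtype held both the highest values (replicates 4 and 2) and values like those of the mutant groups, so the groups overlapped. The fold for Gata5-null-labelled over wildtype was 0.875 (95% interval 0.720 to 1.06) and for double-heterozygous-labelled over wildtype 0.930 (0.766 to 1.13). The ratio of Bgn to Dcn within a library, which does not depend on library scaling, had a mean log2 of 0.37 ± 0.04 in Gata5-null-labelled, 0.36 ± 0.25 in double-heterozygous-labelled and 0.61 ± 0.47 in wildtype pools (SD, n = 4 each). The difference of -0.24 between Gata5-null-labelled and wildtype pools was within that spread (two-sided exact permutation p = 0.343, adjusted p = 1 over 12 ratio tests).

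Aspn had 83.3, 95.5, 104 and 134 CPM in the Gata5-null-labelled pools, 117, 104, 91.7 and 109.6 CPM in the double-heterozygous-labelled pools, and 111, 64.3, 97.9 and 116 CPM in wildtype. The lowest value was that of wildtype replicate 2 and the highest that of Gata5-null-labelled replicate 4. Its folds over wildtype were 1.07 (95% interval 0.837 to 1.37) for Gata5-null-labelled and 1.09 (0.849 to 1.39) for double-heterozygous-labelled pools, and both turned just under 1 without wildtype replicate 2, with log2 fold changes of -0.042 and -0.037. The within-library ratio of Aspn to Dcn did not pass the test in any comparison either (exact permutation p = 0.886, 1 and 0.686, each with an adjusted p of 1).

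Lumican, fibromodulin, PRELP and osteomodulin belong to the keratan sulfate branch of the family. Lum, best known for ordering the collagen of the cornea, had 419, 328, 374 and 419.6 CPM in the Gata5-null-labelled pools, 467, 402, 373 and 420.3 CPM in the double-heterozygous-labelled pools, and 367, 368, 401 and 377 CPM in wildtype. It was the most even member in wildtype, with a coefficient of variation (CV, the SD over the mean) of 4.14%, and the groups overlapped. Its fold for Gata5-null-labelled over wildtype was 1.02 (95% interval 0.864 to 1.20) and for double-heterozygous-labelled over wildtype 1.10 (0.932 to 1.30).

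Fmod, which binds fibrillar collagen in tendon, cartilage and other fibrous tissue, had 318, 238, 141 and 134 CPM in Gata5-null-labelled replicates 1 to 4, 268, 169, 191 and 158 CPM in the double-heterozygous-labelled replicates, and 135, 180.4, 157 and 143 CPM in wildtype. Replicates 1 and 2 of the Gata5-null-labelled group lay above all wildtype pools, while replicates 3 and 4 lay within or just below the wildtype range. The mean was 208 ± 87.5 CPM in Gata5-null-labelled, 196 ± 49.8 CPM in double-heterozygous-labelled and 154 ± 19.8 CPM in wildtype pools (SD, n = 4 each). Its log2 fold change over wildtype was 0.43 (SE 0.26, edgeR adjusted p = 0.9997) for Gata5-null-labelled and 0.35 (SE 0.26, edgeR adjusted p = 0.999997) for double-heterozygous-labelled pools. Single pools carried much of both: the first was 0.17 without Gata5-null-labelled replicate 1, and the second 0.17 without double-heterozygous-labelled replicate 1. In the authors' deposited table, whose fold changes match a DESeq2 refit of Gata5-null-labelled against wildtype, Fmod had a log2 fold change of 0.46, a p of 0.0457 and an adjusted p of 0.770. That table marks all 9 members as not significant.

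Prelp, whose protein has a basic end that binds heparin-like chains, had 135, 116, 67.5 and 51.3 CPM in the Gata5-null-labelled pools, 151, 86.0, 84.9 and 83.0 CPM in the double-heterozygous-labelled pools, and 93.0, 103, 81.1 and 80.9 CPM in wildtype. The Gata5-null-labelled pools lay on both sides of wildtype, with replicates 1 and 2 above it and replicates 3 and 4 below it. The fold for Gata5-null-labelled over wildtype was 1.03 (95% interval 0.677 to 1.57). Part of the annotated exons of Prelp, 350 bases or 9.68%, lies opposite an antisense gene, Gm15851, which is not among the counted genes. Without a stated strand setting, reads of the pair cannot be told apart in that part. Aspn, Omd and Ogn overlap the gene body of Cenpp on the opposite strand, with 7 exon bases shared by Aspn and 0 by Omd or Ogn.

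Omd, known from bone matrix, had the lowest level of the 9 genes. It had 4.92, 4.47, 0 and 5.0 CPM in the Gata5-null-labelled pools, 3.85, 3.08, 4.08 and 4.08 CPM in the double-heterozygous-labelled pools, and 4.78, 2.44, 6.93 and 2.7 CPM in wildtype. The count of 0 in Gata5-null-labelled replicate 3 stands in the library with the most genes at 0 and the fewest counts. Its fold for Gata5-null-labelled over wildtype had a 95% interval of 0.251 to 2.91, so folds between these bounds, in either direction, are compatible with these values. The log2 fold change depended on the tool, at -0.22 in edgeR and -1.13 in limma-voom for Gata5-null-labelled over wildtype, and -0.066 and -1.12 for Gata5-null-labelled over double-heterozygous-labelled pools.

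Osteoglycin, also called mimecan, is a small collagen-binding member of another branch. Ogn had 65.7, 90.5, 93.8 and 145 CPM in Gata5-null-labelled replicates 1 to 4, 134, 108, 95 and 116 CPM in the double-heterozygous-labelled replicates, and 119.6, 108, 123 and 124 CPM in wildtype. Replicates 1 to 3 of the Gata5-null-labelled group lay below all wildtype pools and replicate 4 lay above them. The fold for Gata5-null-labelled over wildtype was 0.834 (95% interval 0.647 to 1.08, edgeR adjusted p = 0.9997). Without Gata5-null-labelled replicate 4 the log2 fold change was -0.51, without replicate 1 it was -0.095, and with all libraries it was -0.26; edgeR called none of these at an adjusted p under 0.05.

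Podocan, from a more distant branch, has been reported in mouse arteries to restrain the growth of smooth muscle cells. Podn had 8.71, 8.03, 8.67 and 10.3 CPM in the Gata5-null-labelled pools, 8.22, 19.7, 12.2 and 16.0 CPM in the double-heterozygous-labelled pools, and 13.6, 13, 12.5 and 12.3 CPM in wildtype. All 4 Gata5-null-labelled pools were below all 4 wildtype pools, while the double-heterozygous-labelled pools lay on both sides. It was the only member, in any of the 3 comparisons, whose groups did not overlap, 1 of 9, beside 1.99% of all genes that were lower and 0.936% that were higher without overlap in the same comparison. Those shares were 0.915% and 1.32% for double-heterozygous-labelled against wildtype, and 2.03% and 0.703% between the mutant groups, with 0 of 9 members. The log2 fold change for Gata5-null-labelled over wildtype was -0.53 (SE 0.32, 95% interval -1.19 to 0.14). It did not pass edgeR's test (adjusted p = 0.9997). The two-sided exact permutation test of the single gene gave p = 0.0286, not adjusted over genes or comparisons. Groups without overlap always give this value, the smallest that 4 against 4 pools allow, so it adds nothing to the lack of overlap. Against the double-heterozygous-labelled pools the log2 fold change was -0.65 (SE 0.32, edgeR adjusted p = 1). The counts behind these levels were 124 to 249 per library in the Gata5-null-labelled pools, 158 to 390 in the double-heterozygous-labelled pools and 242 to 278 in wildtype. The gene body of Podn overlaps that of Scp2, with no shared exon bases.

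Smooth muscle markers were lower in the same comparison. Over the 10 markers, among them Myh11, Acta2 and Tagln, the summed level was 4402 ± 627 CPM (3948 to 5329) in Gata5-null-labelled, 5566 ± 332 CPM (5213 to 5974) in double-heterozygous-labelled and 6835 ± 905 CPM (5795 to 7734) in wildtype pools (SD, n = 4 each), and no marker was at 0 in any library. For Gata5-null-labelled against wildtype 9 of the 10 had a negative fold change and 1 a positive one, beside 10435 negative of 19346 genes. Of the 10, 4 were called lower by edgeR and 0 higher, beside 0.0258% of all genes called. With only the 8 libraries compared edgeR called 0 genes in all, and so none of these 4, and without wildtype replicate 2 it called 2 genes in all. Across the 12 pools log2 Podn had a Pearson r of 0.641 and a Spearman rho of 0.748 with the log2 sum of these markers (permutation p = 0.0258 and 0.00721, adjusted p = 0.150 and 0.0953 over 18 such relations). Without the pools farthest from the median of the sum r was 0.663, and for deviations from the group means it was 0.379 (exact within-group permutation p = 0.0478, adjusted p = 0.172). Without double-heterozygous-labelled replicate 2, the pool with the highest Podn, r was 0.766 (adjusted p = 0.0430). Leaving out any other single pool gave no adjusted permutation p under 0.05, with values from 0.107 to 0.253. Podn also had a negative r of -0.592 and a rho of -0.643 with the summed cartilage markers described below (permutation p = 0.0417 and 0.0276, adjusted p = 0.150 and 0.124). That r was -0.534 without the farthest pools and -0.456 for deviations from the group means (exact within-group permutation p = 0.0150, adjusted p = 0.0903). What part the smooth muscle or cartilage content has in the Podn values was not tested.

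Fmod with Prelp, and Dcn with Lum, varied together from pool to pool. In the mouse genome Fmod and Prelp lie next to each other on chromosome 1, with Dcn and Lum likewise adjacent on chromosome 10, and Aspn, Omd and Ogn in a row on chromosome 13, each counted among protein-coding genes only. Correlations were computed over the 12 libraries for all 36 pairs of members, a choice made after the values had been seen. Fmod and Prelp had a Pearson r of 0.856 (permutation p = 0.00011, adjusted p = 0.00396 over the 36 pairs) and a Spearman rho of 0.818 (permutation p = 0.00179, adjusted p = 0.0322). Their r was 0.714 without the pools farthest from the median of Fmod (Gata5-null-labelled replicate 1 and double-heterozygous-labelled replicate 1). For deviations from the group means it was 0.938 (exact within-group permutation p = 0.00369, adjusted p = 0.0443). Among 19345 other genes, Fmod ranked 6th by r with Prelp, and Prelp ranked 12th with Fmod.

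Dcn and Lum had a Pearson r of 0.839 (permutation p = 0.00055, adjusted p = 0.00990) and a Spearman rho of 0.748 (permutation p = 0.00704, adjusted p = 0.0845). Their r was 0.802 without the pools farthest from the median of Dcn, and 0.813 for deviations from the group means (exact within-group permutation p = 0.00239, adjusted p = 0.0430). Leaving out double-heterozygous-labelled replicate 1, which had the highest Dcn and Lum, gave an r of 0.755 (adjusted p = 0.0828). Dcn ranked 2nd among all other genes by r with Lum, and Lum ranked 7th with Dcn.

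Ogn and Aspn had a Pearson r of 0.590 (permutation p = 0.0505, adjusted p = 0.454) and a Spearman rho of 0.825 (permutation p = 0.00170, adjusted p = 0.0322). A single pool set these apart: without wildtype replicate 2, where Aspn was lowest, r was 0.886 (adjusted p = 0.00774). Without the pools farthest from the median of Ogn it was 0.402, and for deviations from the group means it was 0.750 (exact within-group permutation p = 0.000217, adjusted p = 0.00781). Omd, which lies between Aspn and Ogn, had an r of 0.02 with Aspn and 0.19 with Ogn, at counts of 0 to 134 per library. No other pair of the 36 had an adjusted p under 0.05 for either coefficient. Members of different clusters included pairs with negative r that did not pass the test, such as Fmod with Ogn (r = -0.589, rho = -0.503, permutation p = 0.0431 and 0.0979, adjusted p = 0.454 and 0.587) and with Podn (r = -0.499, rho = -0.343, permutation p = 0.0981 and 0.278, adjusted p = 0.707 and 0.909). The annotation puts no exon of a correlated neighbour on top of the other's.

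**Figure D3:**
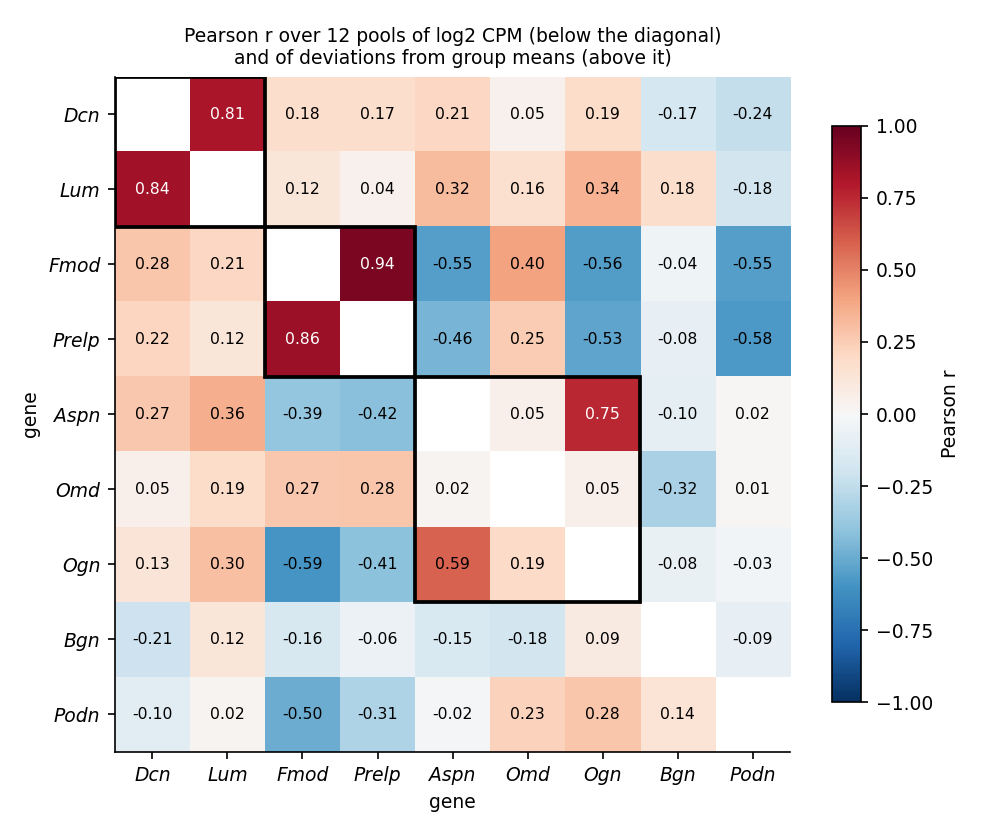
Pearson r between the log2 CPM of the 9 genes over the 12 pools (below the diagonal) and between their deviations from the group means (above it), with black frames round the genes that neighbour each other on chromosomes 10, 1 and 13. The framed pairs Dcn and Lum, Fmod and Prelp, and Aspn and Ogn have the highest values (0.839, 0.856 and 0.590 below the diagonal), while Omd has none above 0.28 below it.

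**Figure D4:**
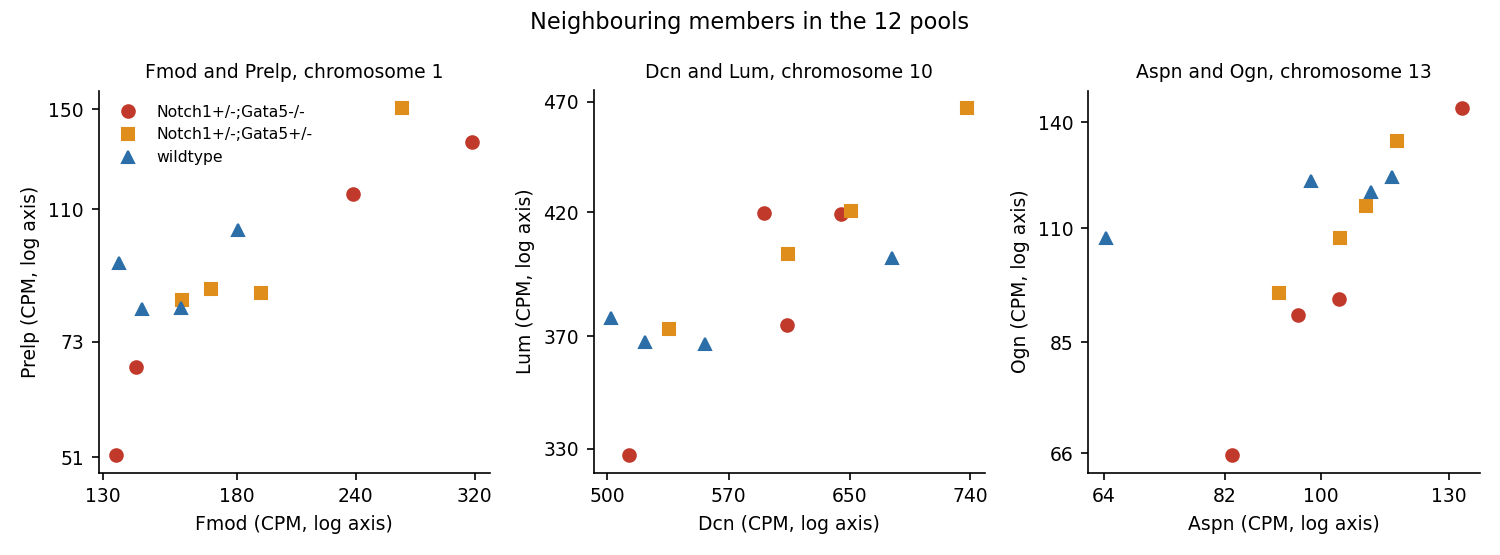
CPM of each neighbouring pair in the 12 pools on log axes, with a symbol per group. Fmod and Prelp spread most among the Gata5-null-labelled pools (134 to 318 CPM of Fmod), Dcn and Lum share their highest pool, a double-heterozygous-labelled one, and wildtype replicate 2 (64.3 CPM of Aspn) stands off the line of the other pools for Aspn and Ogn.

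The upstream sequences of Fmod, Prelp and Podn are shown, the members with a match to a searched word. Ogn and Aspn also carry patterns described above, but their windows had no match and are not shown. RefSeq entries matched 7 of the 9 members by symbol, all but Dcn and Lum, with 8 windows since Podn has a pair of start sites. Each window is the 250 bases before an annotated start, read in the direction of the gene from the GRCm38.p6 table, an older build than the one the reads were aligned to. They were searched on both strands for GATA words (AGATAA, also with T as the first or G as the last letter) and for TGGGAA, the core of the word bound by RBPJ, the DNA-binding partner of Notch. No window shown holds both words. Capitals mark matches, and a match on the opposite strand reads as its reverse complement, TTCCCA in Prelp and CTATCA in Podn.
Fmod, chr1:134037004-134037253, + strand: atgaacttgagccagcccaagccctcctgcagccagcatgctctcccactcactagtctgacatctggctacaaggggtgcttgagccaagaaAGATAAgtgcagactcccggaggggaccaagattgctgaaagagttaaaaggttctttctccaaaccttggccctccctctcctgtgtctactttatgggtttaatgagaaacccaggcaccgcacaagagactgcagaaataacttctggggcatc
Prelp, chr1:133921402-133921651, - strand: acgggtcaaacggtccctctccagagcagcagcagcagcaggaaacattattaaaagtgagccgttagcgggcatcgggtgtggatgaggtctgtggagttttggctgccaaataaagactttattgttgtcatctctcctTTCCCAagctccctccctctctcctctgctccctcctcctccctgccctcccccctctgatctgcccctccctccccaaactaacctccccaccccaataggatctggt
Podn, upstream start, chr4:108031955-108032204, - strand: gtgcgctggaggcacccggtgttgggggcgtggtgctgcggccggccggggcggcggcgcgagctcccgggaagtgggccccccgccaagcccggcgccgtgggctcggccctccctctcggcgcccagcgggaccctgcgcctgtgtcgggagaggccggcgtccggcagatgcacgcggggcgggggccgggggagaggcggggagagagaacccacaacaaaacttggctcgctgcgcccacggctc
Podn, downstream start, chr4:108030987-108031236, - strand: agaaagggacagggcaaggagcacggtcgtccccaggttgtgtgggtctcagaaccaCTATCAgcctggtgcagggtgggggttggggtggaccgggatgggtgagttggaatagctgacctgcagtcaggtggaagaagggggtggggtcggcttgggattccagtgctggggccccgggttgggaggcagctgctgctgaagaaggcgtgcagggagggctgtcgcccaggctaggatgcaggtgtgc
The Fmod window held a GATA word and no TGGGAA, the Prelp window held TGGGAA and no GATA word, and of the Podn windows the downstream one held a GATA word. The windows of Bgn, Aspn, Omd and Ogn held neither. For Ogn, the sequence just after the annotated start was not found near the start of a GENCODE M21 transcript of the gene. Among all 32851 windows of the same length, 26.5% held a GATA word and 21.6% held TGGGAA, so 2 and 1 of 8 windows are a description of these letters only.

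Fmod and Ogn had Pearson correlations of opposite sign with the summed level of cartilage markers. Over all 12 pools these passed the test, but the Spearman correlations and the deviations from the group means did not. The Pearson result was also lost with several single pools left out. Only the cartilage and smooth muscle lists were correlated with the members, a choice made after the data were seen. The adjustment covers these lists alone, not all cell type lists. Of 10 cartilage markers 8 were in the table (Col2a1, Acan, Sox9, Matn4, Col9a1, Col9a2, Comp and Hapln1), and none was at 0 in any library. Their sum was 1091, 787, 788 and 423 CPM in Gata5-null-labelled replicates 1 to 4, 720.5, 533, 588 and 562 CPM in the double-heterozygous-labelled replicates, and 365, 583, 411 and 477 CPM in wildtype. The first 3 Gata5-null-labelled pools were above all other pools and replicate 4 was within the wildtype range. For Gata5-null-labelled against wildtype 0 of 8 were called by edgeR, 4 were higher at an unadjusted p under 0.05, beside 394 of 19346 genes, and the median log2 fold change was 0.55, beside -0.03 over all genes tested.

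With this sum, Fmod had a Pearson r of 0.790 (permutation p = 0.00217, adjusted p = 0.0236 over 18 relations) and a Spearman rho of 0.692 (permutation p = 0.0159, adjusted p = 0.0953). Its r was 0.595 without the pools farthest from the median of the sum, and 0.784 for deviations from the group means (exact within-group permutation p = 0.00441, adjusted p = 0.0592). Ogn ran the opposite way, with an r of -0.776 (permutation p = 0.00262, adjusted p = 0.0236) and a rho of -0.713 (permutation p = 0.0114, adjusted p = 0.0953). The r of Ogn was -0.632 without the farthest pools and -0.739 for deviations from the group means (exact within-group permutation p = 0.0877, adjusted p = 0.225). Both rest on single pools: without Gata5-null-labelled replicate 1 the r of Fmod was 0.651 and that of Ogn -0.601 (adjusted p = 0.253 each). Leaving out wildtype replicate 1 or 3, or Gata5-null-labelled replicate 2 or 4, gave adjusted p between 0.0506 and 0.0727 for both genes. Leaving out Gata5-null-labelled replicate 3 gave an adjusted p of 0.0594 for Ogn. Prelp had an r of 0.568 and a rho of 0.434 (permutation p = 0.0548 and 0.163, adjusted p = 0.164 and 0.366), with an r of 0.544 without the farthest pools and 0.793 for deviations from the group means (exact within-group permutation p = 0.00658, adjusted p = 0.0592). With the smooth muscle sum Ogn had an r of 0.611 and a rho of 0.469 (permutation p = 0.0348 and 0.129, adjusted p = 0.150 and 0.366), with an r of 0.394 without the farthest pools and 0.508 for deviations from the group means (exact within-group permutation p = 0.210, adjusted p = 0.344). The part of cartilage-like or smooth muscle cells in these values was not tested.

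**Figure D5:**
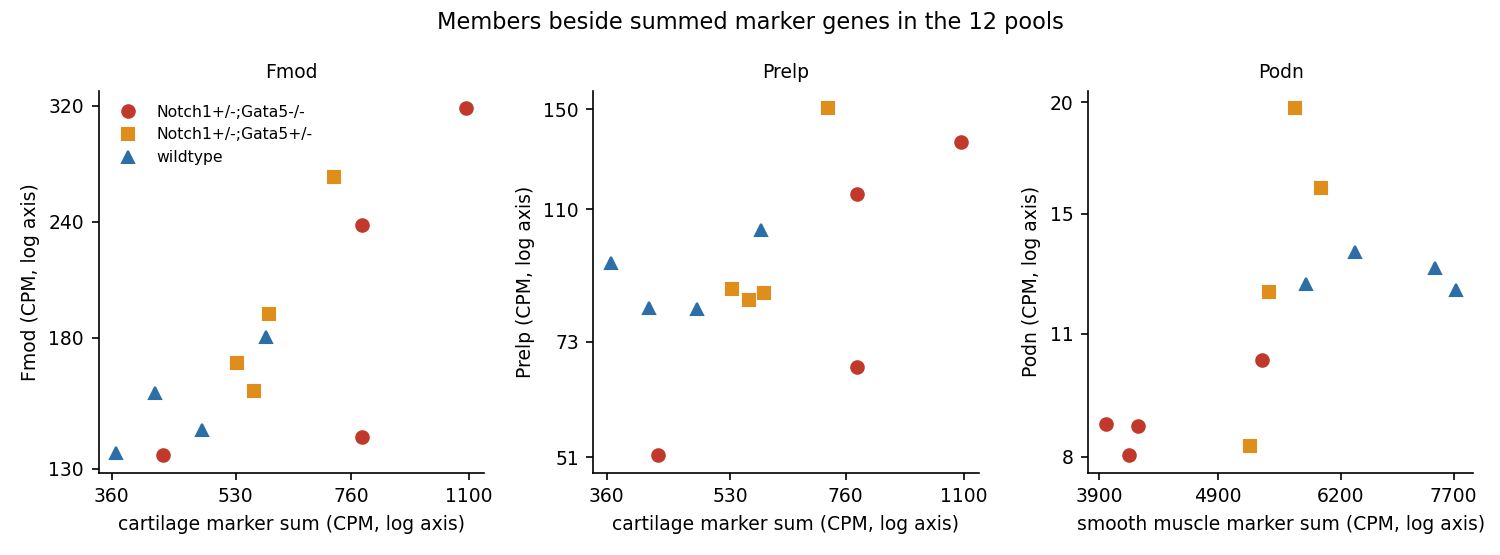
Fmod and Prelp against the summed CPM of 8 cartilage markers, and Podn against the summed CPM of 10 smooth muscle markers, in the 12 pools on log axes with a symbol per group. Fmod is highest (318 CPM) in the pool with the highest cartilage sum (1091 CPM), and the Gata5-null-labelled pools lie at the lower left of the Podn panel, with 3948 to 5329 CPM of smooth muscle markers. Double-heterozygous-labelled replicate 1 lies there too, at 5213 CPM of these markers and 8.22 CPM of Podn.

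Among genes with a symbol and a mean log2 CPM of at least 1, a filter that the ranks among 19345 genes above did not use, the genes nearest to Fmod by r, chosen after their values were seen, were Col8a2 (0.94), Cilp2 (0.93), Col9a1 (0.92), Abi3bp (0.92), Trps1 (0.90), Comp (0.89), Col11a1 (0.89) and Bmper (0.87), of which Col9a1 and Comp are in the cartilage sum. Nearest to Prelp was Col11a2 (0.91), a chain of the cartilage collagen that also holds Col11a1. Next to it came Gm43256 (0.88), Srgap3 (0.86), Fbxl7 (0.86), Fmod (0.86), Gm48529 (0.84), Cilp2 (0.83) and Trps1 (0.82). The 8 nearest to Podn, also chosen after the values were seen, were Rnaseh2c (0.84), Pibf1 (0.83), Myocd (0.82), Otub1 (0.82), Nt5dc3 (0.81), Srf (0.79), Etv3 (0.79) and Plekha2 (0.79). Of these, Myocd is the coactivator of smooth muscle genes and Srf the factor it works with. Among the remaining members, the nearest gene was Ucma (0.91) for Dcn, Zyx (0.89) for Bgn and Mfsd14a (0.90) for Lum. For Ogn, Aspn and Omd it was Ube2w (0.93), Cetn3 (0.95) and 4930513N10Rik (0.98). The genes most like the mean of the 9 members' standardized log2 CPM were Rora (0.88), Brap (0.87), Cep89 (0.87), Inhba (0.86) and Marchf3 (0.85). All these are descriptions over 12 libraries that share depth and composition, without a test.

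The spread between pools was itself uneven. The CV of Fmod was 42.1% in Gata5-null-labelled, 25.4% in double-heterozygous-labelled and 12.9% in wildtype pools, that of Prelp 42.8%, 32.7% and 11.9%, and that of Ogn 33.6%, 14.5% and 6.23%. Bgn ran the other way, at 9.81%, 13.2% and 20.7%. For 6 of 9 members the CV was larger in Gata5-null-labelled than in wildtype pools, beside 65.2% of 13893 genes with a mean log2 CPM of at least 1, so the members' count is near that of all genes.

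Of the remaining relatives in the family all 9 on the list were tested and none was called. Ecm2, the neighbour of Aspn, was the most abundant by CPM, at 76.7 ± 13.5 CPM in Gata5-null-labelled, 84.0 ± 10.3 CPM in double-heterozygous-labelled and 86.1 ± 5.89 CPM in wildtype pools (SD, n = 4 each). Epyc, known from growth plate cartilage, averaged 17.4 ± 3.39, 17.1 ± 3.88 and 17.1 ± 6.21 CPM in the same order. Chad, a cartilage protein that binds cells, had 18.4, 15.9, 17.1 and 3.47 CPM in the Gata5-null-labelled pools, 17.2, 16.0, 7.01 and 9.47 CPM in the double-heterozygous-labelled pools, and 7.07, 12, 8.22 and 10.2 CPM in wildtype. The Gata5-null-labelled replicates of Chad split, with replicates 1 to 3 above all wildtype pools and replicate 4 below them. Tsku, a secreted binder of BMP ligands, averaged 5.30 ± 3.50, 10.1 ± 2.44 and 7.87 ± 2.10 CPM in the same order of groups. The cornea and eye genes Kera, Optc and Nyx, and Chadl and Podnl1, each averaged between 0.404 and 5.89 CPM in every group.

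Among the genes that build, bind or cut these proteoglycans none was called either. Of 22 tested genes for the linker and the chondroitin and dermatan sulfate chains, 1 was higher and 0 lower at an unadjusted p under 0.05 for Gata5-null-labelled against wildtype, with a median log2 fold change of -0.15, beside 394 higher and 650 lower of 19346 genes tested. That gene was Chsy1, a chondroitin synthase, at 177 ± 8.45 CPM in Gata5-null-labelled and 146 ± 24.6 CPM in wildtype pools (SD, n = 4 each; edgeR adjusted p = 0.893). Chst3, a chondroitin sulfotransferase, averaged 20.1 ± 9.36 and 29.5 ± 6.52 CPM, and B4galt7, which adds a galactose of the linker, 7.48 ± 4.26 and 12.9 ± 2.26 CPM. For keratan sulfate 7 genes were tested and 0 had an unadjusted p under 0.05. Their smallest p belonged to B4galt4 (9.23 ± 4.12 CPM in Gata5-null-labelled and 13.6 ± 4.25 CPM in wildtype pools), Chst1 (5.50 ± 3.83 and 3.21 ± 1.92 CPM) and Fut8 (36.3 ± 4.96 and 33.6 ± 3.04 CPM).

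Of 22 collagens and fibril partners, 3 were higher and 2 lower at an unadjusted p under 0.05 for Gata5-null-labelled against wildtype, beside 5.40% of all genes in either direction. Col14a1, a collagen of fibril surfaces, averaged 1152 ± 200.4 CPM in Gata5-null-labelled and 1544 ± 204 CPM in wildtype pools, a log2 fold change of -0.42 (edgeR adjusted p = 0.630). In the double-heterozygous-labelled pools it averaged 1237 ± 78.8 CPM, all 4 below wildtype, a pattern that 0.915% of all genes had in that comparison. Col12a1, another collagen of fibril surfaces, averaged 447 ± 91.4 CPM in Gata5-null-labelled and 332 ± 63.8 CPM in wildtype pools (edgeR adjusted p = 0.839). Col11a1, a chain of thin fibrils, averaged 141 ± 54.6 and 87.6 ± 10.9 CPM in the same order (edgeR adjusted p = 0.840).

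Growth factors and receptors that the family binds numbered 25 in the table, of which 1 was higher and 2 lower at an unadjusted p under 0.05 in the same comparison, beside 5.40% of all genes in either direction. Tgfb2, a ligand that decorin and its relatives can bind, averaged 70.8 ± 16.3 CPM in Gata5-null-labelled, 88.3 ± 4.92 CPM in double-heterozygous-labelled and 109 ± 23.6 CPM in wildtype pools (SD, n = 4 each). Its log2 fold change for Gata5-null-labelled over wildtype was -0.63 (edgeR adjusted p = 0.563), and the groups did not overlap. Both it and Tgfbr1 were picked for a small p, and 1.99% of all genes were lower without overlap in this comparison. Tgfbr1, a receptor of these ligands, was also lower without overlap, at 104 ± 15.4 CPM in Gata5-null-labelled and 128 ± 11.7 CPM in wildtype pools (edgeR adjusted p = 0.872). Ccn4, a secreted protein that binds decorin and biglycan, averaged 51.0 ± 16.6 and 33.9 ± 5.74 CPM in the same order (edgeR adjusted p = 0.839). Of 11 tested proteases and their cofactors, 1 was lower at an unadjusted p under 0.05, where 650 of 19346 genes were: Adamts5, an aggrecan-cleaving enzyme, at 81.5 ± 13.6 CPM in Gata5-null-labelled and 101 ± 9.90 CPM in wildtype pools (edgeR adjusted p = 0.909). Tll1, a protease of the tolloid family, averaged 3.33 ± 1.55 and 6.22 ± 3.28 CPM, and Htra1, a secreted serine protease, 266 ± 44.4 and 295 ± 42.3 CPM.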

How the data were processed

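Aortic valve RNA of 12 pools (3 groups of 4, postnatal day 10, 3 valves per pool) was selected by poly-A and sequenced, per the labels. Per the submitters' processing notes, Trim Galore, STAR 2.7.10b, DESeq2 1.34.0 and the build GRCm39 were used. Not given in the sources used here are the counting tool, annotation and strand setting, and the labels' protocol describes both directional and non-directional libraries. The authors deposited raw counts for 20620 genes, and a table of 13959 genes with a mean signal, log2 fold changes, scores (standard errors and Wald statistics), and p-values before and after adjustment. For Gata5-null-labelled against wildtype, refitting the counts with DESeq2 gave log2 fold changes within 4.57e-08 of these. No other sample's columns were present.

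The analysis used edgeR 4.0.16 in R 4.3.3: filterByExpr (19346 genes kept), TMM scaling, a robust quasi-likelihood fit with a term per group over all 12 libraries, and Benjamini-Hochberg adjustment over all genes, called at an adjusted p under 0.05. CPM values are TMM-normalized, with the SD over pools. Log2 CPM for correlations used a prior count of 2. Single values were compared by two-sided exact permutation over the 35 distinct splits of 8 pools into 4 and 4, which cannot give a p below 0.0286. Correlations used 100000 permutations, and within-group deviations all 13824 exact orderings. The replicates are separate pools, per the labels. The members' symbols came from the authors' table, which named 13959 of the counted genes; a gene name table named 6077 others and 584 stayed unnamed. Transcript lengths, gene overlaps and neighbours came from GENCODE M21 (GRCm38), and promoter sequences from RefSeq (GRCm38.p6). The fit was tested on simulated data.

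The members and gene lists were chosen with earlier results of these data known. Named were all members, the other relatives on the family list, Notch1 and Gata5, the 3 genes with the smallest p for Gata5-null-labelled against wildtype from each of 5 partner lists, and the 5 genes most like the members' mean. Other settings tried were RLE and upper-quartile scaling, no filter and a stricter filter, DESeq2 1.42.0, limma-voom (limma 3.58.1), only the 8 libraries compared, a replicate block, and leaving out each library or both libraries least correlated with the rest. The correlations and their settings were chosen after seeing the data.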

Additional observations from a re-analysis of the deposited data

Results flagged for a closer look

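In a group of 4 pools, a value was set apart when its gap to the nearest other pool exceeded Dixon's 95% critical share of the group's range. Chance does this in about 1 in 20 groups, and 27 groups (9 genes in 3 groups) were tested. Prelp was at 151 CPM in double-heterozygous-labelled replicate 1, against 83.0 to 86.0 CPM in the other 3 pools of that group. The same pool had the highest Fmod of its group. Omd was at 0 CPM in Gata5-null-labelled replicate 3, against 4.47 to 5.0 CPM in the other 3, and this is the library with the most genes at 0.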

How the results depend on the processing

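No member was called under any setting or with any library left out. The number of all genes called for Gata5-null-labelled against wildtype was 47 with DESeq2, 0 with only the 8 libraries compared, 2 without both libraries least correlated with the rest, and 2 to 21 with single libraries left out. For double-heterozygous-labelled against wildtype DESeq2 called 6. For Gata5-null-labelled against double-heterozygous-labelled it called 7, and 2 were called without both libraries and 0 to 1 with single ones left out. The replicate block gave 7, 0 and 0 genes in the 3 comparisons. The labels do not say whether same-numbered pools share anything besides the number. Their deviations from the group means correlated at -0.0331 to 0.0951, and not every pool correlated best with its own number. Such correlations cannot show that nothing is shared. Why these counts differ was not tested.

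Of 243 member fold changes under other settings 9 changed sign. For Gata5-null-labelled against wildtype the log2 fold change of Prelp was -0.070 with limma-voom and -0.048 with the replicate block, and without both libraries those of Aspn and Omd were -0.049 and 0.0055. Without both libraries Aspn was also at -0.037 for double-heterozygous-labelled against wildtype, and Prelp and Omd were at 0.0054 and 0.35 between the mutant groups, where Aspn was at 0.010 with RLE scaling and 0.011 with DESeq2. Of 324 with a single library left out 23 changed sign. Their ranges for Gata5-null-labelled against wildtype were -0.018 to 0.096 for Lum, -0.18 to 0.25 for Prelp, -0.047 to 0.21 for Aspn and -0.43 to 0.20 for Omd. For double-heterozygous-labelled against wildtype they were -0.19 to 0.021 for Bgn, -0.16 to 0.011 for Ogn, -0.080 to 0.26 for Prelp, -0.037 to 0.22 for Aspn, -0.35 to 0.19 for Omd and -0.079 to 0.31 for Podn. Between the mutant groups they were -0.18 to 0.29 for Fmod, -0.36 to 0.14 for Prelp, -0.17 to 0.088 for Aspn and -0.27 to 0.35 for Omd. Podn against wildtype stayed between -0.60 and -0.48 for Gata5-null-labelled pools.

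With single libraries left out, r was 0.755 to 0.872 for Dcn and Lum, 0.816 to 0.909 for Fmod and Prelp, and 0.484 to 0.886 for Ogn and Aspn, the last being 0.750 for deviations from group means and 0.901 without both libraries. With the cartilage sum r was 0.651 to 0.945 for Fmod and -0.913 to -0.601 for Ogn, and deviations from group means gave 0.784 and -0.739, neither past the threshold. Without both libraries Ogn had -0.765. Podn with the smooth muscle sum ranged from 0.568 to 0.766. All 12 ratios kept their verdict of not passing, but this exact test could hardly give another. Its p cannot fall below 0.0286 for 4 against 4 pools, before adjustment over 12 tests. For Gata5-null-labelled against wildtype, single libraries left out moved the log2 ratio difference from -0.10 to 0.20 for Aspn to Dcn. For Omd to Ogn it ran from -1.93 to 0.63. With 4 pools a group, and Omd at up to 134 counts a library, moderate changes of the low genes cannot be detected.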
